A study of Rattus norvegicus with 18 samples.

Results

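Neonatal rat heart muscle cells kept for 48 h in stem cell conditioned medium were compared with such cells kept for 48 h in the unconditioned medium. All samples whose source label names either of these conditions were taken, 6 of the 18 samples of the series. Each condition had 3 samples, of which 2 were hybridised to a larger array design and 1 to a smaller one. The larger design carried 12 of the 18 arrays, and its 2 arrays against 2 gave every test, while the 1 against 1 arrays of the smaller design were read for direction only. Every probe of the larger design that could be tested entered the fit (23694 probes), and 13091 of these carried exactly 1 gene symbol and stood for 9953 genes.

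The study asked whether substances released by stem cells make differentiated heart muscle cells divide. Cells were taken from ventricles of rats at day 1 of age (24 ventricles), enriched on Percoll gradients and plated for 24 h in cardiac media. In the conditioned 48 h group hesc media conditioned by stem cells then made up 50% of the medium, and in the unconditioned 48 h group unconditioned hesc media did so, with FBS at 5% and HS at 10% in both. The 24 h groups had the same media for the shorter time, and the time zero group was extracted before any dilution. The design text describes harvest, purification and the first day in cardiac media in the same way for every group. The labels name no strain, sex or separate cultures, and do not say which stem cells conditioned the medium. The p-values below therefore measure how arrays differ, and part of that may be technical. RNA was measured as intensity, the brightness of a probe on a 1-colour CodeLink array with biotin-labelled total RNA.

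Cytokines of the interleukin-6 family, among them interleukin-6, leukemia inhibitory factor, cardiotrophin-1 and oncostatin M, bind receptors that share the subunit gp130 and switch on the transcription factor STAT3. In heart muscle this route is known for inducing acute phase and protective genes. Myosin heavy chains are the motor proteins of the thick filament, and different genes serve the heart, embryonic skeletal muscle and the fast fibres of adult skeletal muscle. Heart muscle cells of newborn rodents leave the cell cycle within days of birth, and mitotic regulators such as cyclin B1 mark cells in its G2 and M phases. Their RNA alone does not show that a cell divides.

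Each array was scaled to a common median, values under an intensity of 4.84 were set to that floor, and differences were taken on the log2 scale. The median change over all probes was 0.18 in favour of the conditioned arrays. Every difference below is therefore given relative to that median, as conditioned minus unconditioned in log2 units with its standard error (SE). The limma test itself asks whether the unshifted difference is 0, so an increase passes it more easily than a decrease of equal size. Changes against time zero are likewise given relative to their own medians, 0.16 in conditioned and 0.01 in unconditioned medium. Their tests are unshifted too, so calls in conditioned medium lean further towards increases. A gene was called when the limma p, adjusted by Benjamini-Hochberg over all 23694 probes, was under 0.05. A gene with several probes is represented by its brightest one.

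The array medians before scaling ran from 70.3 to 143.6 over the 12 arrays, and those of the 4 arrays at 48 h were 99.8 and 99.3 (conditioned) and 116 and 82.8 (unconditioned). One of the unconditioned 48 h arrays, replicate 2, stood apart from the rest together with 2 time zero arrays. The ratio of its upper to its lower quartile was 25.7, against 38.7 to 47.8 on the arrays that did not stand apart. Its log2 values correlated at 0.89 to 0.90 with the other arrays of 48 h, whereas the conditioned pair correlated at 0.97 and unconditioned replicate 3 at 0.95 with each conditioned array. Many of the results that rest on this array are given with and without it, but not all list medians are.

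The cells read as heart muscle in both media. Of 16 cardiomyocyte markers 14 were tested, and every one was bright, between 725 and 35933 intensity units, on each of the 4 arrays. Their summed intensity was 283240 and 301061 in conditioned medium, against 242783 and 331789 in unconditioned medium, so the groups overlapped. Markers of other cells were present too. The 2 tested of 6 fibroblast markers summed to 4834 and 5529 in conditioned medium and to 5670 and 9929 in unconditioned medium, and the 5 tested of 6 endothelial markers to 2543 and 2696 in conditioned medium and 1968 and 3113 in unconditioned medium. The 6 tested of 7 leukocyte markers summed to 1410 and 1468 in conditioned medium and to 2271 and 1659 in unconditioned medium, the highest sum being that of the array that stood apart. The 6 tested of 7 smooth muscle and pericyte markers summed to 47135 and 49285 in conditioned medium and to 33213 and 44705 in unconditioned medium. No marker of these 5 lists lay at the floor and none was called. In such bulk RNA, fewer cells of a type and less RNA per cell cannot be told apart.

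After 48 h, 16 genes were called between the media, 10 higher and 6 lower in conditioned medium. That is 0.1% and 0.0603% of the 9953 genes. The highest change was that of the secreted lectin gene Reg3b, and the lowest that of the embryonic myosin heavy chain Myh3. The higher genes encode secreted and surface proteins (Reg3b, Lgals3, Thbd), signalling regulators (Ppp2r2b, Camk2n1), a membrane progestin receptor (Paqr8), a vesicle electron carrier (Cyb561), a glycolytic enzyme (Aldoc) and a transcription factor (Runx1), besides Fam180a. The lower genes encode 2 myosin heavy chains (Myh3, Myh2), elastin (Eln), an ion pump (Atp12a), an amino acid transporter (Slc7a3) and a muscle dehydrogenase (Dhrs7c). Over all probes, including those without a single gene symbol, 35 were called (26 higher, 9 lower; 0.11% and 0.038%), which makes 74.3% of the calls higher. With cyclic loess in place of median scaling the split was 217 higher and 124 lower (63.6% higher). The 48 h arrays of the 2 media did not overlap for any of the 16 genes. With 2 arrays against 2 that alone is common: 34.2% of all genes tested had both conditioned arrays above both unconditioned ones and 8.58% had them below. All 16 genes were called under quantile, cyclic loess and 75th percentile scaling as well. The calls depended on other settings: 4 of the 16 were called with no filter on dim probes and 8 with no intensity trend.

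**Figure D1:**
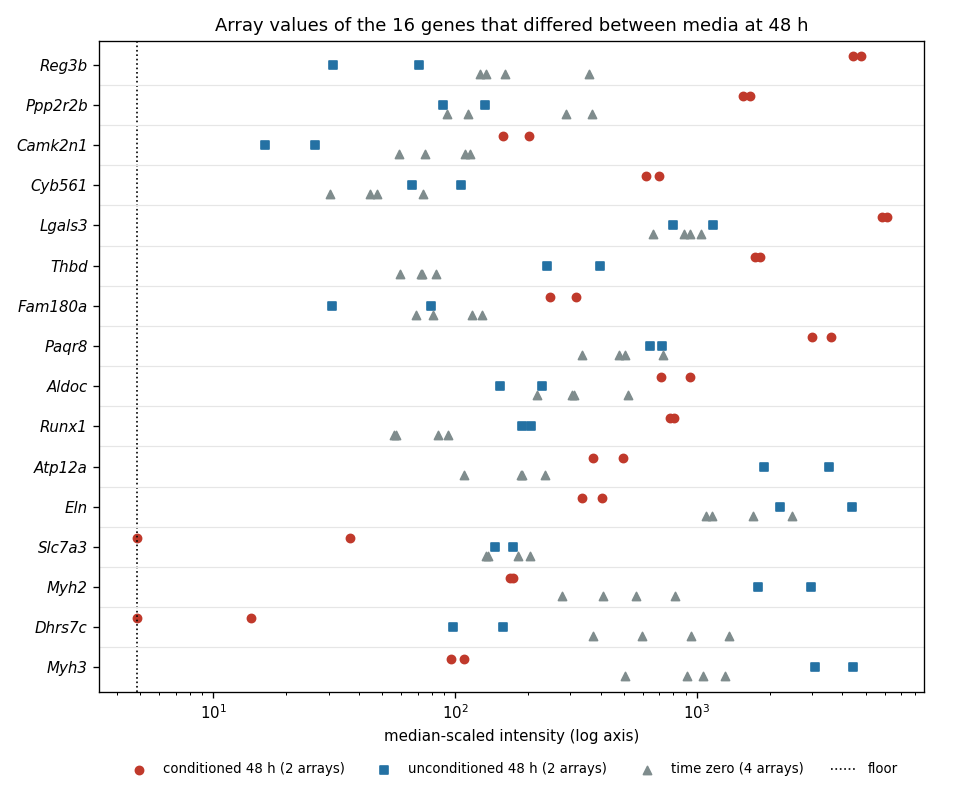
Scaled intensity (log axis) of the 16 called genes on each array, 1 gene a line, with conditioned 48 h arrays (circles) drawn above unconditioned 48 h arrays (squares) and time zero arrays (triangles), and the floor as a dotted line. The conditioned and unconditioned arrays of 48 h do not overlap for any of the 16 genes, with Reg3b between 4434 and 4782 in conditioned medium against 31.4 and 70.8 in unconditioned medium.

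Reg3b, a secreted C-type lectin of the regenerating family that oncostatin M is known to induce in mouse heart muscle, read 4782 and 4434 intensity units in conditioned medium. In unconditioned medium it read 31.4 and 70.8, and at time zero 359, 134, 127 and 161. The groups were fully apart: conditioned arrays lay far above and unconditioned arrays below every time zero array. The difference was 6.43 ± 0.47 log2 units (95% interval 5.43 to 7.43, adjusted p = 1.6e-06, limma). The ratio of conditioned to unconditioned intensity was thus 86.3 times that of the median probe. Against time zero Reg3b rose by 4.54 in conditioned medium (adjusted p = 2.5e-06) and fell by 1.92 in unconditioned medium (adjusted p = 0.014, limma). Reg3b was called under all 26 alternative settings, with changes of 5.45 to 6.76, and read 6.08 without the array that stood apart. It was also called at 24 h (4.53, adjusted p = 0.00018, limma), and the step of 1.89 ± 0.67 between the 2 times did not pass over all probes.

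The 250 bases upstream of the Reg3b start site are shown because this gene moved most and because STAT proteins bind palindromes of the form TTCNNNGAA. The sequence is from RefSeq, rat build GRCr8, chr4:112419526-112419775, plus strand, written 5′ to 3′, with the one match to that pattern in capitals (TTCTTGGAA, starting 129 bases before the start site). The pattern reads the same on both strands, so 1 search covers them, and it overlaps no E-box match.
Reg3b: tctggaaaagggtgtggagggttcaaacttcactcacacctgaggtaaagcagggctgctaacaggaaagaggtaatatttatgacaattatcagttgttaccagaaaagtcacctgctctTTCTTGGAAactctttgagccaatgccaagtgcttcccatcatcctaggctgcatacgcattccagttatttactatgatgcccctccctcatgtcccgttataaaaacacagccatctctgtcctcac
Of the called genes, the genes called only on a dimmer probe and the gp130 list members, 31 were matched by symbol to the RefSeq promoter table and 16 were not. The pattern occurred in 7.52% of all 27457 promoters of the table and in 5.85% of the 8292 whose genes were tested. It was found upstream of 1 of 6 genes called higher (Reg3b), none of 5 called higher on a dimmer probe and none of 3 called lower. In the gp130 list it was found upstream of 3 of 19 tested genes (Reg3b, Icam1 and Serpina3n). A match is a description of these letters and was not tested for binding.

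On their brightest probes, the other genes of the gp130 and STAT3 pathway lay mostly above the median without passing the test. A dimmer probe of the list member Junb was called (2.32 ± 0.46, adjusted p = 0.041, limma), while its brightest was at 0.98 (adjusted p = 0.41). Of 38 listed genes 26 were tested, of which 1 was called higher (Reg3b) and none lower. In all, 21 lay above and 5 below the median of all probes, and their median was 0.68 (all genes tested, 0.07), or 0.76 without the array that stood apart. Among ligands, Il6, Lif and Ctf1 had log2 differences of 0.76, −0.00 and 0.20, and the receptor subunit gp130 itself (Il6st) one of 0.28 ± 0.41 (adjusted p = 0.82), reading 3430 and 3726 in conditioned against 1887 and 3615 in unconditioned medium. The receptor of oncostatin M, Osmr, read 103 and 105 in conditioned medium, against 5.42 and the floor of 4.84 in unconditioned medium. The difference of 4.16 ± 1.12 did not pass (adjusted p = 0.20, limma), and with the floor raised to 0.2 of the array median it was 2.26 (adjusted p = 0.11). Against time zero, where 1 of 4 arrays was at the floor, Osmr rose in conditioned medium (3.40, adjusted p = 0.034, limma, and 2.28 with the raised floor).

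Further down the route, the kinase gene Jak2 had a difference of 0.77 ± 0.42 and the transcription factor Stat3 one of 0.69 ± 0.39, neither past the test (adjusted p of 0.53 and 0.54). Stat3 read 7770 and 8583 in conditioned medium, against 3255 and 6171 in unconditioned medium. Bcl3, a co-activator of NF-kappaB, read 570.2 and 467 in conditioned medium, against 106 and 165 in unconditioned medium (1.79 ± 0.42, adjusted p = 0.093). The transcription factor Cebpd read 893 and 848 in conditioned against 231 and 418 in unconditioned medium (1.31 ± 0.38, adjusted p = 0.19). The adhesion molecule Icam1 read 1014 and 1107 in conditioned against 337 and 547 in unconditioned medium (1.12 ± 0.41, adjusted p = 0.33). These 3 genes missed the threshold. Socs3, the feedback inhibitor of the route, overlapped between the media (80.3 and 68.8 in conditioned, 38.0 and 102 in unconditioned), and the acute phase inhibitor Serpina3n was lower by 0.83 without passing. Relative to time zero, the list's median was 0.37 and 0.34 on the conditioned arrays, against −0.47 and −0.29 on the unconditioned arrays. Against time zero, 6 members rose and none fell in conditioned medium, while none rose and 1 fell (Reg3b) in unconditioned medium, where the background is 7.38% of genes higher in conditioned and 0.673% lower in unconditioned medium.

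**Figure D2:**
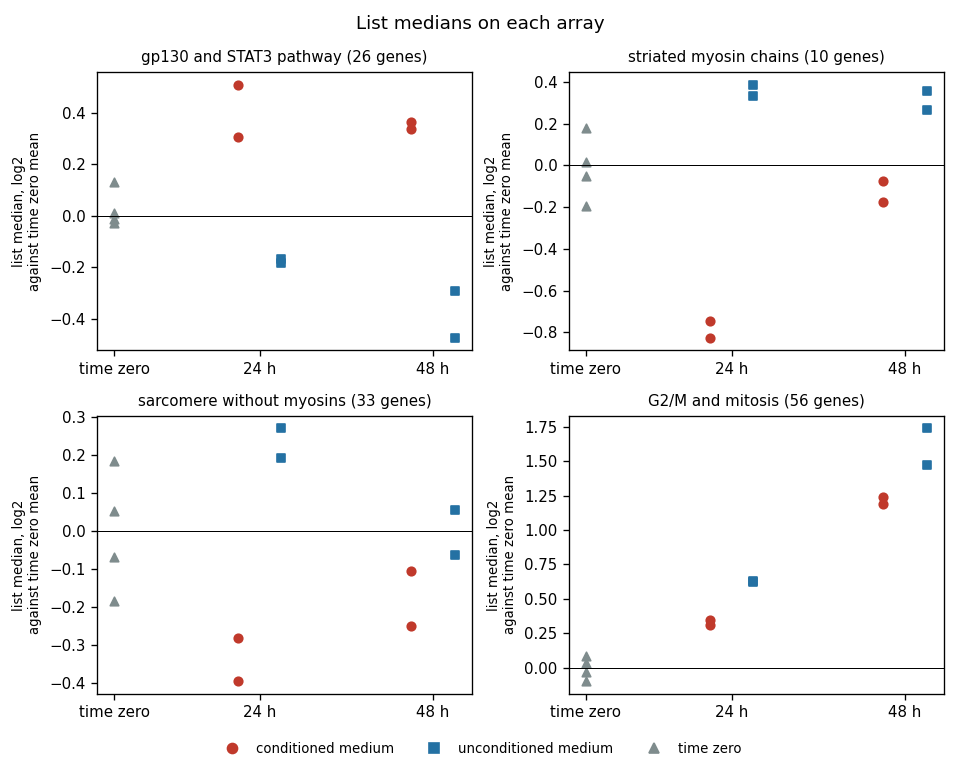
Median log2 level of 4 gene lists on each array relative to the time zero mean, at time zero, 24 h and 48 h, 1 point an array, conditioned left of unconditioned. The gp130 list lies above 0 on both conditioned 48 h arrays (0.37 and 0.34) and below 0 on both unconditioned 48 h arrays (−0.47 and −0.29), whereas the mitosis list is above 1 in both media at 48 h.

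The lowest changes included 2 myosin heavy chain genes of skeletal muscle. Myh3, the embryonic myosin heavy chain, read 109 and 96.2 in conditioned medium, against 3073 and 4441 in unconditioned medium. At time zero it read 1065, 504, 908 and 1306, so conditioned arrays lay below and unconditioned arrays above all of them. The difference was −5.35 ± 0.45 (95% interval −6.31 to −4.39, adjusted p = 2.0e-05, limma). Myh3 fell by 3.29 against time zero in conditioned medium (adjusted p = 8.3e-05) and rose by 2.04 in unconditioned medium (adjusted p = 0.0067, limma). It was called under all 26 alternatives (−5.48 to −4.76), read −5.38 without the array that stood apart, and was −5.15 on the smaller design, where it read 103 on the conditioned and 4748 on the unconditioned array.

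Myh2, the fast IIa myosin heavy chain, read 174 and 169 in conditioned medium, against 1794 and 2950.1 in unconditioned medium. At time zero it read 562, 278, 408 and 812, again between the other groups. The change was −3.92 ± 0.45 (adjusted p = 0.0013, limma), with −1.64 against time zero in conditioned and 2.26 in unconditioned medium (adjusted p of 0.028 and 0.0029). It was called under 25 of 26 alternatives, the exception being no filter on dim probes (adjusted p = 0.057, limma), and the change was −4.05 without the array that stood apart.

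The starts of both genes are shown because the 2 called myosins lie near each other on rat chromosome 10 and moved together. The sequences are the 250 bases upstream from RefSeq, build GRCr8, plus strand, chr10:52268935-52269184 for Myh3 and chr10:52355489-52355738 for Myh2, written 5′ to 3′. Capitals mark the one E-box (CANNTG, the pattern bound by muscle helix-loop-helix factors, the same on both strands), which starts 192 bases before the Myh3 start site. The Myh2 window holds no match.
Myh3: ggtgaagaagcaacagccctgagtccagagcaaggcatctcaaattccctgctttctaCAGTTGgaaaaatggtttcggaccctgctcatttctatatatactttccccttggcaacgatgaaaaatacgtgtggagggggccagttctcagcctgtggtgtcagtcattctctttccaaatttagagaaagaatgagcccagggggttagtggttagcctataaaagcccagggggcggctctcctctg
Myh2: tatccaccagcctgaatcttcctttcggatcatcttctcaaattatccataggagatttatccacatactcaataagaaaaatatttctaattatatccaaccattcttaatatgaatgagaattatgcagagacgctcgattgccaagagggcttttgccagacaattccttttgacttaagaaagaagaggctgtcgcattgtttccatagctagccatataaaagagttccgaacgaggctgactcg
An E-box occurs in 65.2% of all promoters of the table and in 56.7% of those of tested genes, so a match in 1 of the 2 is close to that share.

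The whole list of striated myosin chains held 17 genes, of which 10 were tested, and 2 of these were called lower and none higher. All 10 lay below that of all probes, and their median was −1.12 (all genes tested, 0.07), or −1.23 without the array that stood apart. The fast skeletal light chain Myl11 read 18.1 and 32.9 in conditioned against 125 and 130.0 in unconditioned medium (−2.56 ± 0.83, adjusted p = 0.41). The light chain Myl1 read 259.8 and 252 in conditioned against 465 and 932 in unconditioned medium (−1.54 ± 0.52, adjusted p = 0.46), and the atrial light chain Myl7 read 3263 and 3798 in conditioned against 5493 and 7585 in unconditioned medium (−1.05 ± 0.36, adjusted p = 0.49). None of these light chains passed. The cardiac chains Myh7, Myl2 and Myl3 were bright and closer between the media than Myl7. Myh7, the slow or beta heavy chain, read 27528 and 25886 in conditioned against 21541 and 35933 in unconditioned medium, with a change of −0.24 (95% interval −1.12 to 0.64). The ventricular light chains Myl2 and Myl3 were at −0.27 ± 0.39 and −0.32 ± 0.39. Myh1, Myh4 and Myh8 did not pass the filter on dim probes, and Myh6 was not analysed here. Probe sequences were not analysed, so whether probes of one myosin gene also bind transcripts of its close relatives was not tested.

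Other sarcomere genes lay on both sides of the median. Of 33 tested, none was called, 12 lay above and 21 below the median, and their median was −0.19. Tnnt2, cardiac troponin T, read 23062 and 33969.5 in conditioned against 15052 and 21930.5 in unconditioned medium (0.45 ± 0.40, adjusted p = 0.71). Myom2, an M-band protein, read 281 and 278 in conditioned against 481 and 837 in unconditioned medium (−1.36 ± 0.41, adjusted p = 0.41), while Nebl, a thin filament protein of the heart, read 519 and 459.7 in conditioned against 137 and 247 in unconditioned medium (1.23 ± 0.43, adjusted p = 0.31). These 2 genes lay on opposite sides, and neither passed. The atrial peptide Nppa, a stress and fetal gene, read 28153 and 30019 in conditioned against 26076 and 28763 in unconditioned medium, with a change of −0.09 ± 0.37. Myoglobin (Mb), which stores oxygen in muscle, read 1293 and 1224 in conditioned against 3123 and 4654 in unconditioned medium (−1.78 ± 0.37, adjusted p = 0.13).

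Among calcium handling and ion channel genes, 36 were tested, 1 was called higher and 2 lower, and the median was −0.14. Camk2n1, an inhibitor of calmodulin-dependent kinase II, read 202 and 159 in conditioned medium, against 16.4 and 26.3 in unconditioned medium. At time zero it read 115, 75.2, 58.5 and 109.9, so unconditioned arrays lay below and conditioned arrays above all 4. Only the fall in unconditioned medium passed (−2.06, adjusted p = 0.013), while conditioned medium was at 0.89 (adjusted p = 0.18, limma). The difference between media was 2.93 ± 0.50 (adjusted p = 0.013, limma). Camk2n1 was called under 20 of 25 alternatives, and was 1.58 with a pseudocount of 0.5 of the median. It was 3.12 without conditioned 48 h replicate 3 (adjusted p = 0.15) and 2.82 without unconditioned 48 h replicate 2 (adjusted p = 0.068).

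Atp12a, the non-gastric proton and potassium pump, read 496 and 371 in conditioned medium, against 1892 and 3521 in unconditioned medium and 189, 109, 187 and 236 at time zero. It rose against time zero in both media, by 1.14 in conditioned and 3.88 in unconditioned medium (adjusted p of 0.032 and 2.1e-05, limma). The difference between media was −2.77 ± 0.41 (adjusted p = 0.010, limma), called under 22 of 26 alternatives but not without conditioned 48 h replicate 3 (−2.54, adjusted p = 0.24). Dhrs7c, a dehydrogenase of the sarcoplasmic reticulum in striated muscle, read 14.3 and the floor in conditioned medium, against 98.5 and 158 in unconditioned medium. At time zero it read 1357, 593, 371 and 945, so it fell in both media, with −6.61 in conditioned and −2.56 in unconditioned medium (adjusted p of 9.8e-07 and 0.0067, limma; −5.38 in conditioned medium with the floor raised to 0.2 of the array median). Its difference of −4.08 ± 0.56 (adjusted p = 0.0044, limma) includes an array at the floor. With the raised floor it was −2.85 (adjusted p = 0.039), with a pseudocount of 0.5 of the median −1.79 (adjusted p = 0.25), and without conditioned 48 h replicate 3 it was −3.28 (adjusted p = 0.12). Hrc, a calcium binding protein of the same compartment, read 642 and 601 in conditioned against 1801 and 2474 in unconditioned medium (−1.94 ± 0.42, adjusted p = 0.13), and Gja5, a gap junction protein, 3321 and 3579.9 in conditioned against 663 and 1457 in unconditioned medium (1.63 ± 0.41, adjusted p = 0.12).

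Elastin was lower in conditioned medium without a like change in the genes that assemble elastic fibres. Eln read 336 and 405 in conditioned medium, against 2202 and 4366 in unconditioned medium and 2462, 1151, 1092 and 1706 at time zero. The conditioned arrays lay below every other array, and the unconditioned arrays lay within or above the time zero arrays. The difference was −3.25 ± 0.42 (95% interval −4.14 to −2.36, adjusted p = 0.0035, limma), and −3.51 without the array that stood apart (adjusted p = 0.00091, limma). Eln fell against time zero in conditioned medium (−2.20, adjusted p = 0.0021) and was at 1.02 in unconditioned medium (adjusted p = 0.18, limma). Of 18 tested genes of elastic fibre assembly, Eln alone was called, 10 lay above and 8 below the median, and the median was 0.20. Relative to time zero, this list's median was 1.19 and 1.26 on the conditioned arrays. On the unconditioned arrays it was 0.73 on replicate 2, which stood apart, and 1.26 on replicate 3. The fibrillin Fbn1 was at −0.24 ± 0.48, the crosslinking enzyme Lox at −0.47 ± 0.37 and the glycoprotein Emilin1 at 2.20 ± 0.57 (adjusted p = 0.14), reading 189.8 and 184 in conditioned against 30.7 and 42.1 in unconditioned medium. Mgp, matrix Gla protein, read 4189.9 and 4592 in conditioned against 8545 and 12657 in unconditioned medium (−1.42 ± 0.41, adjusted p = 0.37).

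Lgals3 and Thbd were the called genes among galectins, lectins and surface receptors. Of 14 tested members of that list, 2 were called higher and none lower, 12 lay above the median and the median was 0.55. Lgals3, the sugar-binding lectin galectin-3, read 5803 and 6091 in conditioned medium, against 798 and 1168 in unconditioned medium and 1044, 657, 884 and 939 at time zero. The unconditioned arrays lay at the time zero level (0.14, adjusted p = 0.91) and the conditioned arrays above it (2.61, adjusted p = 1.7e-05, limma). The difference of 2.44 ± 0.34 (adjusted p = 0.0029, limma) was called under 25 of 26 alternatives. The exception was leaving out conditioned 48 h replicate 3 (2.43, adjusted p = 0.056). On the smaller design galectin-3 read 7663 on the conditioned and 2054 on the unconditioned array.

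Thbd, thrombomodulin, a surface receptor that turns thrombin towards anticoagulation, read 1829.9 and 1734 in conditioned medium, against 240.0 and 399 in unconditioned medium. At time zero it read 72, 83.7, 59.3 and 73.2, so it rose in both media, by 4.47 in conditioned and 2.10 in unconditioned medium (adjusted p of 2.6e-07 and 0.00081, limma). The difference was 2.35 ± 0.35 (adjusted p = 0.0035, limma), and 2.41 without conditioned 48 h replicate 3 (adjusted p = 0.064). Another, dimmer Thbd probe was at 0.37 ± 0.36 (adjusted p = 0.72), with means of 221 in conditioned and 155 in unconditioned medium, so the 2 probes disagree in size, and their average gave 1.27 (adjusted p = 0.050). Thbd was also the one called gene among 24 tested endothelial markers, whose median was 0.06. Galectin-9 (Lgals9) read 913 and 1288 in conditioned against 259 and 387 in unconditioned medium (1.60 ± 0.44, adjusted p = 0.17), and Lgals1 overlapped between the media (9534 and 8676 in conditioned, 6812 and 10948 in unconditioned).

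Ppp2r2b, a regulatory subunit of protein phosphatase 2A, had the next highest change after Reg3b among the 16 called genes. It read 1658 and 1551 in conditioned medium, against 88.8 and 133 in unconditioned medium and 368, 92.4, 113 and 287 at time zero. The conditioned arrays lay above every other array, and unconditioned and time zero arrays overlapped. The change was 3.70 ± 0.53 (adjusted p = 0.0035, limma), called under 23 of 26 alternatives. Cyb561, which carries electrons across the membrane of secretory vesicles, read 617 and 697 in conditioned medium, against 66.3 and 105 in unconditioned medium and 73.6, 30.4, 47.5 and 44.6 at time zero. Its change of 2.79 ± 0.43 (adjusted p = 0.0045, limma) was 2.73 without conditioned 48 h replicate 3 (adjusted p = 0.13).

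Runx1, a transcription factor best known from blood formation, read 805 and 771 in conditioned medium, against 190.0 and 206 in unconditioned medium. At time zero it read 84.8, 56.9, 56.2 and 93.8, and it rose in both media (3.31 in conditioned and 1.47 in unconditioned medium, adjusted p of 4.4e-06 and 0.015, limma). The difference was 1.82 ± 0.37 (adjusted p = 0.041, limma), called under 14 of 26 alternatives. Paqr8, membrane progestin receptor beta, read 3003 and 3569 in conditioned medium, against 642 and 715 in unconditioned medium (2.09 ± 0.37, adjusted p = 0.012, limma), with time zero at 728, 477, 334 and 502. Its other, dimmer probe was at −1.85 ± 1.21 (adjusted p = 0.75), and the average of the 2 probes at 0.03 (adjusted p = 0.88), so the call rests on the bright probe. Fam180a read 246 and 317 in conditioned medium, against 30.9 and 79.5 in unconditioned medium (2.32 ± 0.48, adjusted p = 0.044, limma), called under 14 of 26 alternatives.

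These 3 calls, with those of Camk2n1, Aldoc and Slc7a3, did not hold without unconditioned 48 h replicate 2, the array that stood apart. Without it the changes were 1.99 for Runx1 (adjusted p = 0.16), 2.25 for Paqr8 (adjusted p = 0.055), 1.87 for Fam180a (adjusted p = 0.36), 2.82 for Camk2n1 (adjusted p = 0.068), 1.89 for Aldoc (adjusted p = 0.26) and −3.65 for Slc7a3 (adjusted p = 0.093). The other 10 genes kept their direction without it. Ppp2r2b was then at 3.65 and Cyb561 at 2.69 under median scaling. With quantile normalization and without that array they were at 3.52 and 2.57, and neither was called. Leaving out conditioned 48 h replicate 3 removed 11 of the 16 calls and kept Reg3b, Ppp2r2b, Myh3, Myh2 and Eln, with no gene changing direction. Without it the changes were 1.87 for Runx1 (adjusted p = 0.47), 1.99 for Paqr8 (adjusted p = 0.30), 2.16 for Fam180a and 1.76 for Aldoc (adjusted p = 0.65 each) and −2.27 for Slc7a3 (adjusted p = 0.56). Leaving out conditioned 48 h replicate 2 removed the calls of Camk2n1, Fam180a, Paqr8, Aldoc and Runx1, and leaving out unconditioned 48 h replicate 3 those of Runx1, Slc7a3 and Atp12a.

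**Figure D3:**
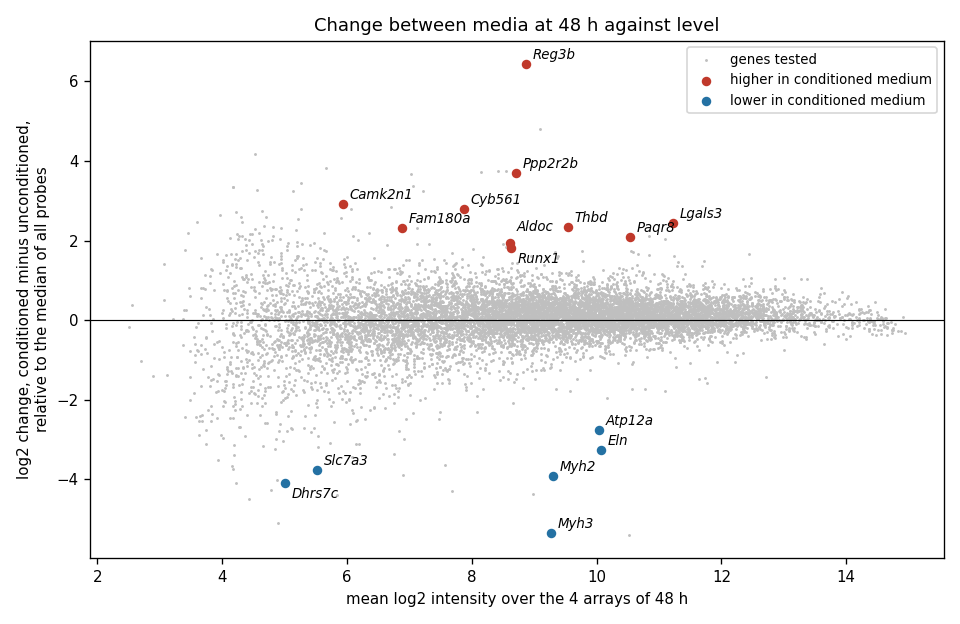
Log2 change of conditioned against unconditioned medium at 48 h, relative to the median of all probes, against the mean log2 intensity, 1 point for each of 9953 genes, with the 16 called genes named. Reg3b (6.43) and Myh3 (−5.35) are the called genes farthest from 0, and some uncalled genes far from 0 rest on an array at the floor.

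Metabolic genes gave 2 further calls. Aldoc, a glycolytic aldolase, read 711 and 934 in conditioned medium, against 154 and 229.6 in unconditioned medium and 521, 219, 312 and 304 at time zero (1.94 ± 0.40, adjusted p = 0.041, limma). Of 41 tested hypoxia targets and glycolytic genes it was the one called, 31 lay above and 10 below the median, and the median was 0.24. Angptl4, a secreted lipase inhibitor, read 4329 and 5148 in conditioned against 752 and 1359 in unconditioned medium (2.05 ± 0.47, adjusted p = 0.086), Ndrg1, a stress response gene, 753 and 732 in conditioned against 141 and 219 in unconditioned medium (1.90 ± 0.42, adjusted p = 0.060), and the enolase Eno1 5999.6 and 6011 in conditioned against 1428 and 2554 in unconditioned medium (1.48 ± 0.41, adjusted p = 0.16). These 3 missed the threshold, and the list's median was 0.07 without the array that stood apart. Slc7a3, a carrier of cationic amino acids, read 36.8 and the floor in conditioned medium, against 146 and 174 in unconditioned medium and 134, 203, 137 and 183 at time zero. The change was −3.76 ± 0.66 (adjusted p = 0.041, limma) and −2.74 with that higher floor (adjusted p = 0.021), called under 11 of 25 alternatives, with −1.82 for a pseudocount of 0.5 of the median (adjusted p = 0.036) and −2.27 without conditioned 48 h replicate 3 (adjusted p = 0.56). The lists of fatty acid oxidation (32 tested, median 0.24), the respiratory chain (45 tested, 0.06) and cholesterol synthesis (24 tested, 0.07) held no called gene.

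Cell cycle genes were not called between the media at 48 h. Of 56 tested genes of G2/M and mitosis, none was called in either direction and none had an unadjusted p under 0.05. Of these, 49 lay below the median and 7 above, with a median of −0.37 and a range of −0.93 to 0.25 (all genes tested, 0.07). Without the array that stood apart the median was −0.53. Ccnb1, cyclin B1, read 1474 and 1574 in conditioned against 1774 and 2816 in unconditioned medium (−0.73, 95% interval −1.57 to 0.11). Mki67, a marker of cycling cells, read 1529 and 1373 in conditioned against 1225 and 1369.8 in unconditioned medium (−0.02, 95% interval −0.82 to 0.79). Cdk1, the mitotic kinase, read 7254 and 6193 in conditioned against 4605 and 9620.1 in unconditioned medium (−0.17, 95% interval −1.18 to 0.85). The groups of Cdk1 overlapped and those of Mki67 lay next to each other, and no change was detectable at this number of arrays.

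Against time zero, mitotic genes rose in both media. In each medium 36 of the 56 genes were called higher and none lower, where 7.38% of all genes were higher in conditioned and 2.79% in unconditioned medium. The list's median against time zero was 1.25 in conditioned and 1.59 in unconditioned medium, and by array 1.19 and 1.24 in conditioned against 1.47 and 1.74 in unconditioned medium. Ccnb1 rose by 1.23 in conditioned and 1.94 in unconditioned medium (adjusted p of 0.020 and 0.0037), Mki67 by 1.42 in conditioned and 1.41 in unconditioned medium (adjusted p of 0.0067 and 0.024) and Cdk1 by 1.69 in conditioned and 1.83 in unconditioned medium (adjusted p of 0.011 and 0.021, limma). Both contrasts share the time zero arrays. The summed intensity of the mitotic genes was 74982 and 77914 in conditioned medium, 69962 and 113837 in unconditioned medium and 23778 to 40506 at time zero.

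Markers of other cells were higher against time zero too, and their part in the rise of the mitotic genes was not tested. Of 24 endothelial markers, 14 were called higher in conditioned and 9 in unconditioned medium (1 lower in each), with medians of 1.43 in conditioned and 1.27 in unconditioned medium. Of 15 smooth muscle and pericyte markers, 7 were called higher in conditioned and 4 in unconditioned medium (medians of 1.04 in conditioned and 0.61 in unconditioned medium), and of 28 fibroblast markers 10 in conditioned and 7 in unconditioned medium (medians of 0.65 in conditioned and 0.86 in unconditioned medium). The endothelial list summed to 11648 and 11940.1 in conditioned medium, 7597 and 10882 in unconditioned medium and 4117 to 6246 at time zero. The fibroblast list summed to 120979 and 119733 in conditioned medium, 89412.5 and 122173 in unconditioned medium and 53087 to 96252 at time zero. The smooth muscle list summed to 68369 and 70920.1 in conditioned medium, 47996.5 and 65286.5 in unconditioned medium and 26737 to 45629.5 at time zero. The 20 leukocyte markers had medians of −0.49 in conditioned and −0.25 in unconditioned medium against time zero.

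Of 38 tested genes of DNA replication none was called between media (17 above, 21 below, median −0.07). Ccnd1, cyclin D1, which drives entry into the cycle, read 5489 and 5415 in conditioned against 2679 and 4532 in unconditioned medium (0.47 ± 0.41, adjusted p = 0.71). The inhibitors Cdkn1a and Cdkn2b were at 0.28 ± 0.37 and 0.35 ± 0.76, and Cdkn2b rose against time zero in both media (6.22 in conditioned, 5.84 in unconditioned), where its 4 arrays read 4.84, 5.4, 53.2 and 10.1. These sizes depend on the floor and were 5.05 in conditioned and 4.65 in unconditioned medium with the floor raised to 0.2 of the array median.

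**Figure D4:**
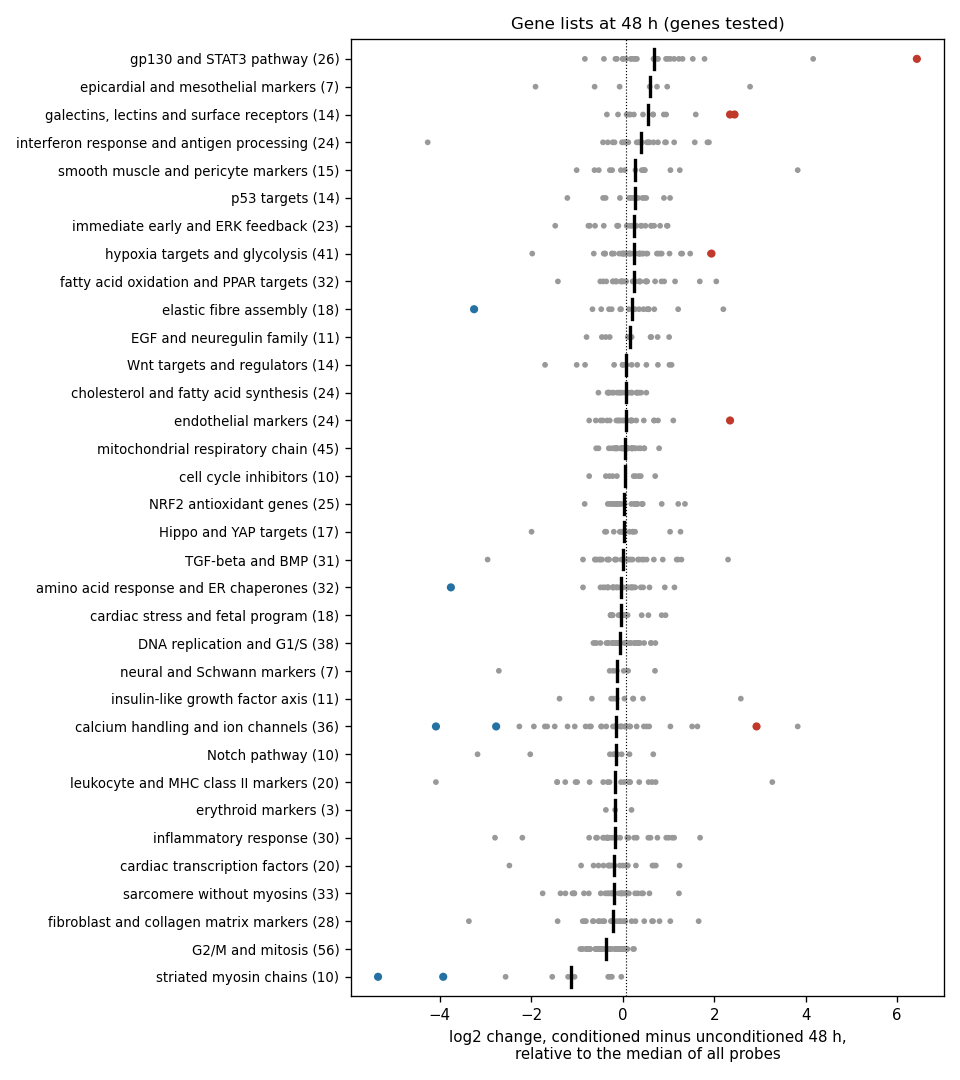
Log2 change at 48 h, conditioned minus unconditioned relative to the median of all probes, for the tested members of each of 34 gene lists, 1 point a gene, with the list's median as a bar, called genes as larger points and the median of all genes tested as a dotted line. The myosin list has the lowest median (−1.12) with all members below 0, and the gp130 list the highest (0.68).

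Across the 34 lists, which named 979 genes, 738 genes were tested, 5 were called higher and 6 lower, and 26 lists held no called gene. Interferon response and antigen processing genes had a median of 0.39 (24 tested, 18 above), which was 0.21 without the array that stood apart. Their member Isg15 read 545 and 519 in conditioned against 127 and 196 in unconditioned medium (1.57 ± 0.40, adjusted p = 0.12). Inflammatory genes had a median of −0.17 (30 tested), with the receptor Tlr2 at 401 and 389 in conditioned against 107 and 109 in unconditioned medium (1.69 ± 0.42, adjusted p = 0.11). Immediate early genes had a median of 0.25 (23 tested). Relative to time zero, their median was 1.11 and 0.94 on the conditioned arrays of 48 h. On the unconditioned arrays it was 0.57 on replicate 2, which stood apart, and 0.95 on replicate 3. The insulin-like growth factor (−0.13), EGF (0.15), TGF-beta (0.00), Wnt (0.07), Notch (−0.14), p53 (0.26), NRF2 (0.03) and Hippo (0.02) lists lay between −0.14 and 0.26. Lists of other cell types had medians of −0.21 (fibroblast), 0.28 (smooth muscle), −0.16 (leukocyte), 0.59 (epicardial, 7 tested) and −0.13 (neural).

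For 7 genes a dimmer probe was called while the brightest did not pass. Fn1, fibronectin, had the smallest p of these, with 2.60 ± 0.38 (adjusted p = 0.0035, limma) on a probe reading 721 and 698 in conditioned against 86.5 and 124 in unconditioned medium. Its brightest probe read 11060.5 and 10069 in conditioned against 2556 and 3410.2 in unconditioned medium (1.66 ± 0.37, adjusted p = 0.059). The ventricular transcription factor Irx4 was at 1.99 ± 0.41 on the called probe (adjusted p = 0.041, limma) and at 0.72 on the brightest (adjusted p = 0.60). Without unconditioned 48 h replicate 3 the called Irx4 probe was at 1.18 (adjusted p = 0.12), and without replicate 2 at 2.78 (adjusted p = 0.0078). The potassium channel Kcnj8 was at 4.69 ± 0.92 on the called probe, which had 1 unconditioned array at the floor, and at 3.83 ± 1.09 on the brightest (adjusted p = 0.25). Flt4, Junb, Nmt1 and Sytl2 were at 2.15, 2.32, 1.60 and 2.05 on the called probes and at 1.11, 0.98, 0.16 and 1.71 on the brightest. All 7 lay above 0 on both probes. Without conditioned 48 h replicate 3 none of the 7 called probes passed, and without unconditioned 48 h replicate 2 there were 3.

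Genes nearest to a call on the lower side were Cd74, Hr, Tril, Mb, Asb18 and Hrc. Cd74, the invariant chain of MHC class II, was at the floor on both conditioned arrays, against 85.7 and 61.5 in unconditioned medium (−4.08 ± 0.76, adjusted p = 0.051, and −2.07 with the higher floor, adjusted p = 0.40). Hr, a nuclear corepressor, read 42.8 and 22.7 in conditioned against 123 and 207 in unconditioned medium (−2.53 ± 0.51, adjusted p = 0.10). Tril, an accessory protein of Toll-like receptors, read 37.6 and 56.7 in conditioned against 287 and 279 in unconditioned medium (−2.79 ± 0.58, adjusted p = 0.11). None of the 6 passed.

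The called genes moved the same way at 24 h. All 16 had the sign of the 48 h change at 24 h, where 66.2% of all genes tested did, and 11 of the 16 were called at 24 h too (background 0.311% of genes). Both tests use the same spread for each probe, so the calls at the 2 times are not independent and that background is not a like comparison. Camk2n1, Fam180a, Paqr8, Aldoc and Slc7a3 were not called at 24 h, with changes of 1.39, 1.51, 1.62, 1.20 and −1.64. The difference between the 2 times was itself tested and called no probe with limma (518 probes had an unadjusted p under 0.05), so no gene was shown to differ between media at one time more than at the other. On the smaller design 12 of the 16 genes were measured and all 12 had the same sign, where 60.1% of 4613 shared genes did. Whether the designs were hybridised with RNA of the same dishes is not given in the sources used here. On the smaller design Paqr8 read 2615 on the conditioned and 338 on the unconditioned array, Eln 160.1 on the conditioned and 897 on the unconditioned array, and the Thbd probe 225 on the conditioned and 194 on the unconditioned array.

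**Figure D5:**
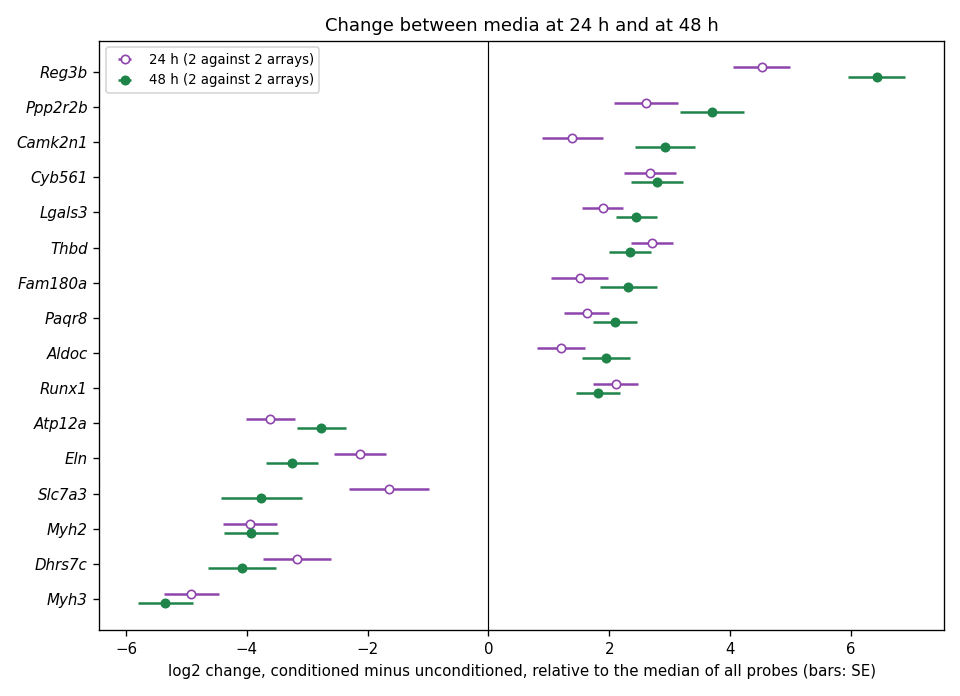
Log2 change of conditioned against unconditioned medium at 24 h (open points) and 48 h (filled points), each relative to its median over all probes. Each line is 1 of the 16 genes called at 48 h, and bars are SE. All 16 have the same sign at both times, with Reg3b at 4.53 (24 h) and 6.43 (48 h) and Myh3 at −4.92 and −5.35.

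Against time zero, the 16 genes were sorted into 3 patterns by which medium passed the test. Only conditioned medium passed for 8 genes, of which Ppp2r2b, Cyb561, Lgals3, Fam180a, Paqr8 and Aldoc rose and Slc7a3 and Eln fell. Only unconditioned medium passed for Camk2n1, which fell there. A medium that did not pass is not shown to be unchanged. Both media passed for 7. These moved in opposite directions for Reg3b, Myh3 and Myh2, and in the same direction by unequal amounts for Thbd, Runx1, Atp12a and Dhrs7c. In all, 735 genes rose and 86 fell in conditioned medium (7.38% and 0.864%) and 278 rose and 67 fell in unconditioned medium (2.79% and 0.673%). The median change over all probes, 0.16 in conditioned and 0.01 in unconditioned medium, was not removed from these tests. It adds to the rises in conditioned medium and takes from its falls. The 2 comparisons share the time zero arrays, of which 2 stood apart.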

How the data were processed

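RNA of cultured rat cardiomyocytes was measured on 1-colour CodeLink arrays with biotin labelling, per the labels' protocols. The values deposited by the authors are linear intensity. The scanner, software, background correction, normalization and genome build are not given in the sources used here, and array medians differed before the scaling described here. Of 33849 probes with values in the larger table, 16753 carried 1 gene symbol, 165 several and 16931 none in the platform annotation, and 16724 of the 16753 matched RefSeq by gene ID (1 renamed).

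Each array was scaled to the table's median (96.8), floored at 0.05 of it, and taken to log2. Dim probes, up to the 30th percentile of the mean, were dropped. One limma model (version 3.58.1, R 4.3.3) covered all 12 arrays, using lmFit and eBayes with trend, on 7 residual and 10.4 prior degrees of freedom. The smaller table (9906 probes, 6934 kept) gave directions only, relative to its median difference of −0.38. No 2 arrays held identical values, and the number of arrays limits precision.

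The members, gene lists and tests were chosen with earlier results of these data known. Named were up to 15 called genes in each direction with separate groups (filled to 12 by the smallest p), up to 4 list members with the smallest p, and a set list of genes. Further list members, the 7 genes called on a dimmer probe and the genes at the floor on a single array were chosen after their values were seen. The alternatives were other scalings, filters, floors and models, and each array left out in turn. In simulated data with 200 of 23694 probes changed for the comparison at 48 h, limma called 0% of the changes at 2-fold, 33% at 4-fold and 71.5% at 8-fold, with 0, 7 and 5 calls among probes that were not changed. Plots were made in Python 3.11.15 (matplotlib 3.10.9).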

Additional observations from a re-analysis of the deposited data

How the results depend on the processing

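Of 35 called probes between media at 48 h (26 higher, 9 lower), the count was 172 with quantile normalization, 341 with cyclic loess, 153 with scaling to the 75th percentile, 10 with no filter, 22 with no intensity trend, 79 with array weights, 95 with the 48 h groups alone, 254 without time zero, 292 when the 3 arrays standing apart were dropped, and 68 with quantile normalization and without unconditioned 48 h replicate 2. The cause was not tested, except that no filter adds probes to the adjustment and the smaller fits hold fewer arrays. Leaving out 1 array gave 11 to 130 called probes, lowest without conditioned 48 h replicate 3 and highest without time zero replicate 4. Without unconditioned 48 h replicate 2 it was 46, with 20 of the 35 kept, without unconditioned 48 h replicate 3 97, and 21, 19 and 22 without conditioned 24 h replicates 2 and 3 and unconditioned 24 h replicate 3. The median change of all probes was 0.18, against 0.05 with quantile normalization, −0.02 with cyclic loess, 0.00 with the 75th percentile and −0.06 without unconditioned 48 h replicate 2.

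The difference between 48 h and 24 h called 0 probes with limma, but 17 when those 3 arrays were dropped, 11 with quantile normalization and without unconditioned 48 h replicate 2, and 0 to 15 leaving out 1 array (15 without unconditioned 24 h replicate 2). The fit on the 48 h groups alone cannot give this difference. With the floor raised to 0.2 of the median, an alternative chosen after seeing the data for the contrasts with time zero, 15 of the 16 called genes differed from time zero in conditioned medium, the same count as with the lower floor. No called value changed direction under any alternative run. Of the single genes' values, 186 newly passed the threshold and 152 no longer passed it. Counted together with the list medians, 4567 values stayed the same and 172 moved. A single gene's value moved when it changed sign relative to the median without being called. No paired analysis was possible because the labels give no replicate numbers.

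Groups of 2 arrays detect few changes under 4-fold, the labels give no batch to test, and values near the floor carry no order.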

Other observations

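Of the 35 called probes, 12 carried no gene symbol, 9 higher and 3 lower in conditioned medium. Probe 324111 read 229 and 252 in conditioned medium, against 8.47 and 7.15 in unconditioned medium (4.77 ± 0.92). Probe 91075 read 813 and 970 in conditioned medium, against 170 and 179 in unconditioned medium (2.17, adjusted p = 0.0044, limma). On the lower side, probe 229022 read 791 and 1097 in conditioned medium, against 4537 and 7399 in unconditioned medium (−2.81 ± 0.42, adjusted p = 0.011, limma). Their genes were not analysed here.

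For 12 genes the probe read the floor on exactly 1 of the 4 arrays of 48 h and above 200 on the other 3. The floor fell on each array in turn, for 2 genes on conditioned replicate 2, 3 on conditioned replicate 3, 4 on unconditioned replicate 2 and 3 on unconditioned replicate 3. The antioxidant enzyme gene Prdx2 read 4.84 and 12061 in conditioned medium, against 6854 and 11694 in unconditioned medium. Klc2, a kinesin light chain, read 2975 and 3215 in conditioned medium, against 1963 and 4.84 in unconditioned medium. The ribosomal protein gene Rps23 read 495 and 416 in conditioned medium, against 4.84 and 314 in unconditioned medium. No gene of this kind was called, and their large changes, such as −5.39 ± 1.95 for Prdx2, rest on that single reading. Dhrs7c and Slc7a3 had 1 of their 2 conditioned readings there.

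The genes with the smallest p for a difference between the media's effects at 48 h and 24 h included Fn3k (2.22 ± 0.63, unadjusted p = 0.0013) and Klf15, a glucocorticoid-induced transcription factor (2.86 ± 0.87), on the higher side and Tmigd1 (−3.44 ± 0.82, unadjusted p = 0.00089) on the lower side. None passed after adjustment. The sides are those of the difference between times. At 48 h itself Fn3k and Klf15 lay below the median, at −0.44 to −0.22 and −0.53 to −0.17 over the alternatives. Tmigd1, Calb2, Fmo2 and Yap1, the 4 named on the lower side, were high on unconditioned 48 h replicate 2, the array that stood apart, and Calb2 was at the floor on both conditioned arrays of 48 h.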
